A study of Sus scrofa with 2 samples.

Results

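Spots of pig skeletal muscle that captured RNA of complement component C1q, but little collagen RNA, were described in 2 Visium sections. Members were chosen by 2 measured values: at least 1 unique molecular identifier (UMI, 1 per captured molecule) of C1QA, C1QB or C1QC, and under 2000 counts per 1000000 UMIs of the spot (CPM) for COL1A1, COL1A2, COL3A1 and DCN together. By this rule 190 of 2430 kept spots of section 1 and 261 of 2878 kept spots of section 2 were members, 451 in all. They are called C1q-positive spots here, and spots under the same collagen limit with no C1q UMI are called C1q-negative.

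Both sections were cut from the psoas major, a loin muscle, of female Landrace pigs, and the labels give 2 pigs with 1 section each on the same slide. The labels name no treatment and no age, and they define 1 group, so each comparison was made between kinds of spot within a section. A spot is a small region that can hold parts of several fibres and of the tissue between them. Shares are therefore shares of spots, not of cells, and more macrophages in a spot cannot be told apart from more RNA per macrophage.

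C1q starts the classical complement pathway by binding antibody complexes and dying cells. Its A, B and C chains come from 3 neighbouring genes, and in most tissues resident macrophages are their main source. In muscle, resident macrophages lie in the connective tissue around fibre bundles and also in the thin endomysium between single fibres, beside capillaries. On Sscrofa11.1 the RefSeq annotation places C1QA at chr6:80586259-80589213, C1QC at chr6:80592591-80597464 and C1QB at chr6:80601680-80606076.

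The deposited tables held 3633249 UMIs in 2487 spots of section 1 and 5382677 UMIs in 2939 spots of section 2. Kept spots had medians of 928.5 and 1350.5 UMIs. The 2 sections shared 2104 barcodes, as spots of a slide layout do, and 14 barcodes were members in both.

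Most members rested on a single molecule. Exactly 1 C1q UMI was counted in 121 of the 190 members of section 1 and in 183 of the 261 of section 2. There were 38 and 48 members with 2 C1q UMIs and 31 and 30 with 3 or more, and the highest counts in a spot were 8 and 13.

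All 3 chains contributed. C1QA gave 92 and 149 UMIs, C1QB 132 and 155, and C1QC 97 and 120 in sections 1 and 2. Of the members with 2 or more C1q UMIs, 48 of 69 and 52 of 78 had UMIs of more than 1 of the 3 genes. The members were chosen by these same UMIs, so the shares are a description. Whether the chains were caught together was not tested.

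The collagen limit cut through a continuous range. The highest member stood at 1998 CPM for the 4 genes in section 1 and at 1961 in section 2, and the nearest C1q-positive spots outside stood at 2038 and 2024. No UMI of the 4 genes was found in 93 and 119 members. In spots with few UMIs 1 such molecule already exceeds the limit, which held for 17 and 7 members with 500 UMIs or fewer.

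Low-collagen tissue held most of the C1q RNA because it made up most of the sections. Members carried 321 of the C1q UMIs of section 1 (74.1%) and 424 of those of section 2 (78.2%), and they were 83.3% and 85.9% of all C1q-positive spots. The order of levels was opposite: in CPM, C1q stood at 97.2 and 84.9 over all low-collagen spots and at 377 and 315 over all collagen-rich spots. These levels use the genes of the rule and are a description without a test.

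Depth decided much of who was a member. Members had median depths of 2298.5 and 2850 UMIs, whereas the C1q-negative spots had 874 and 1274.5. In bins of 362 to 512 UMIs, 3.31% of the low-collagen spots of section 1 (exact 95% binomial interval 1.23 to 7.08%) and 5.26% of those of section 2 (2.43 to 9.76%) were C1q-positive. In bins of 2896 to 4096 UMIs the shares were 16.3% (12.3 to 20.9%) and 18.6% (14.8 to 22.8%). A spot with no C1q UMI is thus not a spot shown to lack macrophages.

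**Figure D1:**
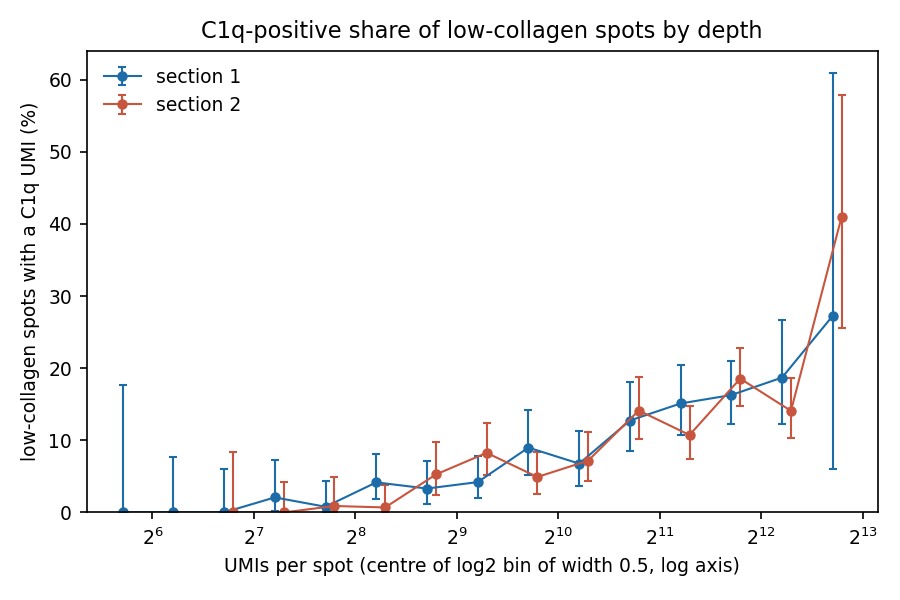
Share of low-collagen spots with at least 1 C1q UMI (vertical axis, percent) against UMIs per spot (horizontal axis, log scale, bins with at least 10 spots) in sections 1 and 2, with exact 95% binomial intervals as bars. The share was 3.31% and 5.26% in the bin of 362 to 512 UMIs and 16.3% and 18.6% in that of 2896 to 4096 UMIs.

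C1q-negative spots were for this reason weighted within each section to the depth distribution of the members, in bins of log2 UMIs of width 0.5. All members and 1854 of 1978 and 2201 of 2332 C1q-negative spots entered. The weighted sums then held 464982 and 737001 UMIs, beside 467077 and 742013 in the members. Mitochondrially encoded genes took 17.8% and 16.9% of the members' UMIs and 18.5% and 17.3% of those of the matched spots.

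Which other genes went with C1q in this tissue? Of 2844 genes tested, 10 were higher in C1q-positive than in matched C1q-negative spots (edgeR, Benjamini-Hochberg adjusted p under 0.05), which is 0.352% of the genes. None was lower (0%) in this edgeR fit. At an unadjusted p under 0.05 there were 139 genes, 82 of them higher, and DESeq2 called 4 genes higher and 0 lower. The 7 genes of the rule were left out of these tests.

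The 10 genes fall into known macrophage genes, a folate receptor, secreted proteins of immune and other cells, and identifiers without a symbol. They are taken in turn here, and the plot of levels of the called genes shows that in each of them both C1q-positive sums stood above both matched sums.

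**Figure D2:**
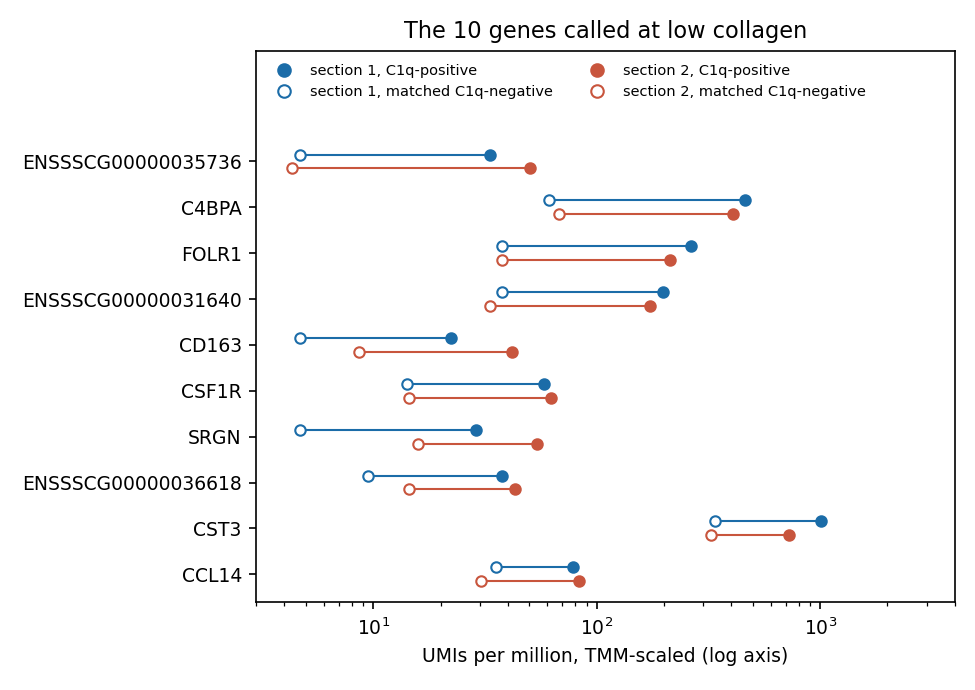
Levels of the 10 genes called higher in C1q-positive spots at low collagen, in CPM after TMM scaling (horizontal log axis). Filled points are the C1q-positive and open points the matched C1q-negative sums, blue for section 1 and red for section 2. C4BPA, for example, lay at 461 and 408 in the C1q-positive sums and at 61.3 and 67.8 in the matched sums.

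CSF1R and CD163 are the called genes that define macrophages. CSF1R, the receptor of the macrophage growth factor CSF1, gave 26 UMIs in the C1q-positive spots of section 1 against 6 in the matched sum, and 45 against 10 in section 2. It averaged 60.3 ± 3.37 against 14.3 ± 0.207 CPM (TMM-scaled, which sets libraries to a common composition, mean ± SD, n = 2 sections), a log2 fold change of 2.06 (SE 0.33, edgeR adjusted p = 0.00523). CD163, the scavenger receptor for haemoglobin bound to haptoglobin, gave 10 against 2 UMIs and 30 against 6 UMIs, with a log2 fold change of 2.20 (SE 0.45, edgeR adjusted p = 0.0429). Both were seen in few spots: CSF1R in 11.1% and 13.03% of the members against 2.57% and 3.74% of the matched spots, and CD163 in 4.74% and 7.28% against 0.930% and 1.95%.

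Neither gene was called by DESeq2, where CSF1R had an adjusted p of 0.21, and CD163 was called under 7 of 14 alternatives and CSF1R under 14 of 16. Without the 10 members with most C1q UMIs in each section, a setting chosen after seeing the data, its log2 fold change was 1.85 and the call was lost, whereas that of CSF1R was 1.90 and held.

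C4BPA and FOLR1 had the smallest p-values of all genes. C4BPA is the alpha chain of C4b-binding protein, a soluble inhibitor of the classical complement pathway. It gave 207 UMIs in the members of section 1 against 26 in the matched sum, and 293 against 47 in section 2. The levels were 434 ± 37.4 and 64.6 ± 4.64 CPM (TMM-scaled, mean ± SD, n = 2 sections), and the log2 fold change was 2.70 (SE 0.14, edgeR adjusted p = 2.64e-09). FOLR1 is a folate receptor anchored in the cell membrane. It gave 119 against 16 and 153 against 26 UMIs, a log2 fold change of 2.62 (SE 0.17, edgeR adjusted p = 4.51e-08).

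The names of these genes need care. The RefSeq annotation of the assembly holds 2 entries named C4BPA and 2 named FOLR1 on chromosome 9. FOLR2, a folate receptor of resident macrophages, lies beside FOLR1 at chr9:6785308-6790466. No feature of the files carries the symbol FOLR2, so it could not be counted under that name. For C4BPA and FOLR1 the files give 1 identifier each (ENSSSCG00000015662 and ENSSSCG00000022236), and reads may have been shared between the near copies. Which copy the UMIs came from was not tested.

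Each of these signals was seen in a minority of the members. C4BPA was seen in 36.3% of the members of section 1 (exact 95% binomial interval 29.5 to 43.6%) and in 37.2% of those of section 2 (31.3 to 43.3%), against 11.05% and 13.04% of the matched spots. FOLR1 was seen in 32.1% (25.5 to 39.2%) and 28.0% (22.6 to 33.8%), against 7.35% and 8.01%. A single spot gave at most 16 and 22 UMIs of C4BPA, so the sums did not come from 1 spot. The 31 and 30 members with 3 or more C1q UMIs gave 108 of the 207 and 127 of the 293 C4BPA UMIs.

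CST3 was the most common of the called genes among spots. It encodes cystatin C, a secreted inhibitor of cysteine cathepsins that many cell types make. Members held 451 and 521 UMIs and the matched sums 144 and 225, a log2 fold change of 1.35 (SE 0.15, edgeR adjusted p = 4.35e-05). It was seen in 62.6% and 58.2% of the members and also in 39.3% and 43.5% of the matched spots. The call was lost when spots were matched on depth and myosin class together (log2 fold change 1.33, edgeR adjusted p = 0.059).

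CCL14, a chemokine that attracts monocytes, gave 35 against 15 UMIs in section 1 and 60 against 21 in section 2. Its log2 fold change was 1.33 (SE 0.23, edgeR adjusted p = 0.00867). SRGN, the core protein serglycin that packs the granules of blood-derived cells, gave 13 against 2 UMIs and 39 against 11 UMIs, with a log2 fold change of 1.91 (SE 0.36, edgeR adjusted p = 0.0196). Neither was called with 1 drawn C1q-negative spot per member or by DESeq2, and SRGN was not called without the 10 members with most C1q UMIs in each section.

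Of the called genes without a symbol in the files, ENSSSCG00000035736 carries the name CCL24 in the study's own annotation tables. CCL24 is a chemokine that attracts eosinophils in humans. It had the largest fitted fold change of the called genes, with 15 against 2 UMIs and 36 against 3 UMIs and a log2 fold change of 3.18 (SE 0.43, edgeR adjusted p = 0.000599). The matched sums were so small that the size of this change is loosely known. ENSSSCG00000031640 gave 89 against 16 and 124 against 23 UMIs, with a log2 fold change of 2.37 (SE 0.19, edgeR adjusted p = 4.05e-07). ENSSSCG00000036618 gave 17 against 4 and 31 against 10 UMIs, with a log2 fold change of 1.68 (SE 0.35, edgeR adjusted p = 0.0437), and it was called under 10 of 16 alternatives. All 3 were chosen for the text after their values were seen, as the naming rule asks for a symbol.

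Signals of the called genes overlapped in the same spots. Of the 7 called genes with a symbol, 3 or more were seen in 28.9% and 24.5% of the members, against 3.15% and 4.78% of the matched spots by weight. None of the 7 was seen in 27.9% and 23.8% of the members and in 49.2% and 45.3% of the matched spots. The 7 genes were picked in the same spots, so these shares describe how the UMIs were spread and are no further evidence.

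Macrophage genes outside the rule were used to check what the spots hold. The 10 markers (CD163, MRC1, CSF1R, MS4A7, CD68, CD14, AIF1, TYROBP, FCER1G and CTSS) together reached 257 and 241 CPM in the members and 76.8 and 79.4 in the matched spots. At least 1 UMI of the 10 markers was found in 31.1% and 33.0% of the members, against 13.4% and 15.5% of the matched spots. The label therefore held for the spots as a group, while most single members showed none of the 10 markers at this depth.

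Of a longer list of 25 tissue macrophage genes in the files, 17 were higher in CPM in the C1q-positive spots of both sections, 1 was lower in both, and 1 had no UMI in either. Only 8 genes passed the filter on low counts, of which 2 were called. All 8 lay above 0, with a median log2 fold change of 1.79, where the median of all 2844 genes was -0.02 and 47.4% of them lay above 0. A gene this rare passes the filter more easily when it is high in the C1q-positive sums, so the tested count and its median are no support of their own. The 17 genes that did not pass gave 35 and 71 UMIs in the members and 14.3 and 23.6 in the matched sums.

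Several macrophage genes just missed the threshold. TYROBP, a signalling adaptor of myeloid receptors, gave 40 against 12 and 33 against 17 UMIs (log2 fold change 1.25, SE 0.27, edgeR adjusted p = 0.057). STAB1, a scavenger receptor of resident macrophages and some endothelia, gave 19 against 3 and 36 against 15 UMIs (1.53, SE 0.33, edgeR adjusted p = 0.057). SELENOP, the selenium carrier made by liver and by macrophages, gave 121 against 73 and 170 against 114 UMIs (0.57, SE 0.12, edgeR adjusted p = 0.057). Each was higher in both sections, but the test did not separate them from the spread between sums.

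The remaining tested members were scarcer. CD14, a coreceptor for bacterial lipopolysaccharide, gave 14 against 2 and 15 against 4 UMIs (log2 fold change 2.13, edgeR adjusted p = 0.13). F13A1, the A subunit of clotting factor XIII that resident macrophages store, gave 9 against 2 and 17 against 3 UMIs (2.22, edgeR adjusted p = 0.11). FCER1G, a shared signalling chain of Fc receptors, gave 12 against 7 and 20 against 10 UMIs (0.83, edgeR adjusted p = 0.98).

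Of the untested members, MRC1, the mannose receptor, gave 4 UMIs against a weighted 1.30 in section 1 and 11 against 3.44 in section 2. AIF1, a calcium-binding protein of myeloid cells, gave 3 against 1.97 and 11 against 2.82 UMIs, and CTSS, a cathepsin that trims the invariant chain of MHC class II, gave 7 against 2.40 and 12 against 3.73. LYVE1, the hyaluronan receptor of perivascular macrophages and lymphatic vessels, gave 2 against 0.683 and 7 against 1.51 UMIs. VSIG4, a complement receptor of resident macrophages, gave 2 against 0.532 and 8 against 0.512 UMIs. CD68, LAPTM5, PLD4 and MERTK were also higher in both sections, at 6 UMIs or fewer in each section.

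SPI1, the transcription factor PU.1, was the member that was lower in both sections, with 1 UMI against 4.58 and 3 against 6.17. MS4A7 gave 2 and 0 UMIs, TREM2 0 and 2, SIGLEC1 0 and 0, FCGR1A 0 and 1, CD84 1 and 0, and TIMD4 0 and 0 in the members of sections 1 and 2. HPGDS had no UMI in either kind of spot. At so few molecules a difference was not detectable.

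**Figure D3:**
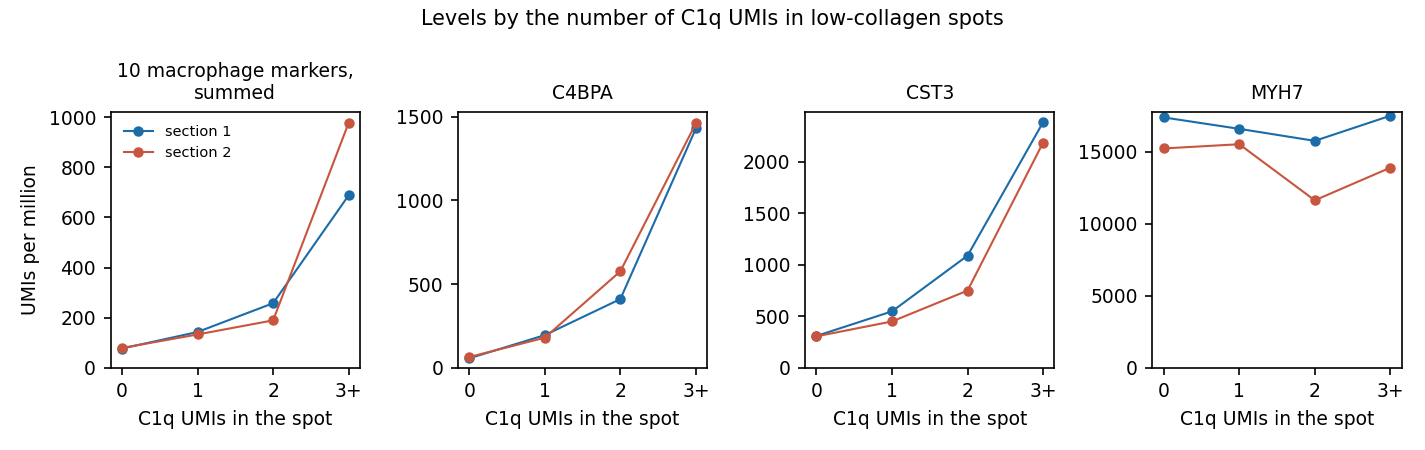
Levels in CPM (vertical axes) of the 10 summed macrophage markers, C4BPA, CST3 and MYH7 in low-collagen spots with 0 (depth-matched), 1, 2 and 3 or more C1q UMIs (horizontal axes), for sections 1 and 2. The marker sum went from 76.8 and 79.4 at 0 to 688 and 977 at 3 or more C1q UMIs, while MYH7 stood between 11623 and 17491 throughout.

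These levels were higher where more C1q molecules had been caught. The 10 markers stood at 143 and 133 CPM in spots with exactly 1 C1q UMI, at 258 and 189 with 2, and at 688 and 977 with 3 or more. The share of spots with a UMI of the 10 markers went from 19.8% and 26.2% over 42.1% and 29.2% to 61.3% and 80.0%. C4BPA was higher at each step in both sections, from 56.7 and 64.3 CPM in matched spots over 195 and 180, then 410 and 576, to 1429 and 1460. These steps describe sums of 30 to 183 spots per section and were not tested as a trend.

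Members with exactly 1 C1q UMI still differed from matched spots. With these members alone, a setting chosen after seeing the data, edgeR called 4 genes: FOLR1 (log2 fold change 1.70), C4BPA (1.57), ENSSSCG00000031640 (1.47) and CST3 (0.67). Each fold change was smaller than over all members. With 2 or more C1q UMIs as the minimum, edgeR called 34 genes among 1193 tested, 32 higher and 2 lower, the latter being MYL3 (-0.47) and NDUFA13 (-0.94). There TYROBP (2.09), STAB1 (2.54), SELENOP (1.03), MARCKS (2.33) and CTSB (1.37) were called as well. Genes of other cells moved with them, named here after their values were seen: HBB of red blood cells (0.66), GSN (0.90), LUM (1.35) and MGP (1.05) of connective tissue, and TAGLN (0.84) and FLNA (0.99), which smooth muscle expresses. Their part in the result was not tested.

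C4BPA stood above its level in matched spots whichever of the 3 chains had been caught, whereas the 10 macrophage markers were in part close to theirs. Among members with 1 C1q UMI, C4BPA stood at 122 and 136 CPM where that UMI was of C1QA, at 264 and 208 where it was of C1QB, and at 168 and 204 where it was of C1QC. The 10 markers stood at 85.4 and 131, at 214 and 160, and at 95.8 and 102. In the C1q-negative spots matched to all members, C4BPA stood at 56.7 and 64.3 CPM and the 10 markers at 76.8 and 79.4. CD163 gave 0 UMIs in both sections where the single UMI was of C1QC, and SRGN gave 0 there in section 1 and 4 in section 2. Each value rests on 31 to 68 spots and on as few as 7 UMIs of the 10 markers, and the order of C1QA and C1QC changed between sections for the 10 markers.

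The genes that present antigen on MHC class II lay above 0 without being called in the fit over all members. CD74, the invariant chain, gave 612 against 473 and 871 against 723 UMIs (log2 fold change 0.25, SE 0.08, edgeR adjusted p = 0.48). HLA-DRA, the alpha chain of the DR molecule, gave 80 against 41 and 93 against 75 UMIs (0.51, SE 0.16, edgeR adjusted p = 0.40). SLA-DQB1, the beta chain of the DQ molecule, gave 70 against 35 and 82 against 57 UMIs (0.66, SE 0.19, edgeR adjusted p = 0.30). Of the 8 genes of the list in the files 3 were tested and 0 were called by edgeR, though all 3 had an unadjusted p under 0.05, and DESeq2 called none of them. All 3 were called with a collagen limit of 4000 CPM (0.32 for CD74, 0.72 for HLA-DRA and 0.98 for SLA-DQB1), CD74 (0.49) and HLA-DRA (1.06) with 2 or more C1q UMIs, CD74 (0.27) and SLA-DQB1 (0.68) with the 4 low-collagen sums alone, and HLA-DRA (0.67) and SLA-DQB1 (0.77) without depth matching. CD74 was seen in 83.7% and 87.0% of the members but also in 78.8% and 82.0% of the matched spots.

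Of 15 other complement genes in the files 7 were tested and C4BPA was called. CFD, the factor D protease that fat cells secrete, gave 150 against 101 and 205 against 140 UMIs (log2 fold change 0.49, SE 0.12, edgeR adjusted p = 0.11). SERPING1, the C1 inhibitor, gave 40 against 29 and 68 against 49 UMIs (0.41, edgeR adjusted p = 0.98). ITGB2, the beta chain of the leukocyte complement receptors, gave 9 against 2 and 4 against 3 UMIs (1.24, edgeR adjusted p = 0.996), so section 2 showed hardly a difference. The median of the 7 was 0.49. C5AR1, the receptor of C5a on myeloid cells, did not pass the filter, with 7 UMIs against 0.370 and 6 against 0.728.

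Chemokines and cytokines were mostly too rare to test. Of 25 genes in the files 5 were tested, 1 of which was called, CCL14, and the median was 0.27. CXCL12, a chemokine of stromal cells, gave 38 against 37 and 70 against 57 UMIs (log2 fold change 0.14). TGFB1, a growth factor of wound repair, gave 8 against 5 and 23 against 14 UMIs (0.63, edgeR adjusted p = 0.996). CCL19 gave 8 against 6 and 16 against 13 UMIs (0.27). TNF gave no UMI in the members or the matched spots. IL10 gave none in the members of either section.

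Of 29 lysosomal and phagocytic genes in the files, 18 were higher in the C1q-positive spots of both sections and 1 was lower in both, and their sum stood at 1428 and 1473 CPM against 1194 and 1241. Of the 20 tested, 13 lay above 0, with a median of 0.19. None was called by edgeR in the fit over all members, and 3 had an unadjusted p under 0.05. CTSB, a cysteine cathepsin, gave 60 against 37 and 113 against 55 UMIs (log2 fold change 0.84, SE 0.20, edgeR adjusted p = 0.11). LGMN, an asparagine-specific lysosomal protease, gave 14 against 7 and 40 against 14 UMIs (1.28, edgeR adjusted p = 0.30). Both were called with a collagen limit of 4000 CPM (0.84 for CTSB and 1.28 for LGMN) and with the 4 low-collagen sums alone (0.86 and 1.31). CTSB was also called with 2 or more C1q UMIs (1.37), without depth matching (0.88) and without the filter on low counts (0.80). GAS6, a bridge between dying cells and phagocytes, gave 10 against 7 and 28 against 11 UMIs (1.00, edgeR adjusted p = 0.56). PSAP, the precursor of the saposins, gave 96 against 70 and 138 against 122 UMIs (0.22).

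Lipid-handling genes of macrophages did not move together. Of 6 tested, 4 lay above 0 and none was called by edgeR. LGALS3, a galectin of activated macrophages, gave 7 against 2 and 13 against 3 UMIs (log2 fold change 1.85, edgeR adjusted p = 0.35). APOE, a lipid carrier, gave 7 against 6 UMIs in section 1 and 1 against 11 in section 2 (-1.11, edgeR adjusted p = 0.996). PLTP gave 1 against 1 and 9 against 2 UMIs, and FABP5 gave 223 against 186 and 321 against 297 (0.11). SPP1, a marker of macrophages in injured tissue, gave 0 and 1 UMIs in the members.

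**Figure D4:**
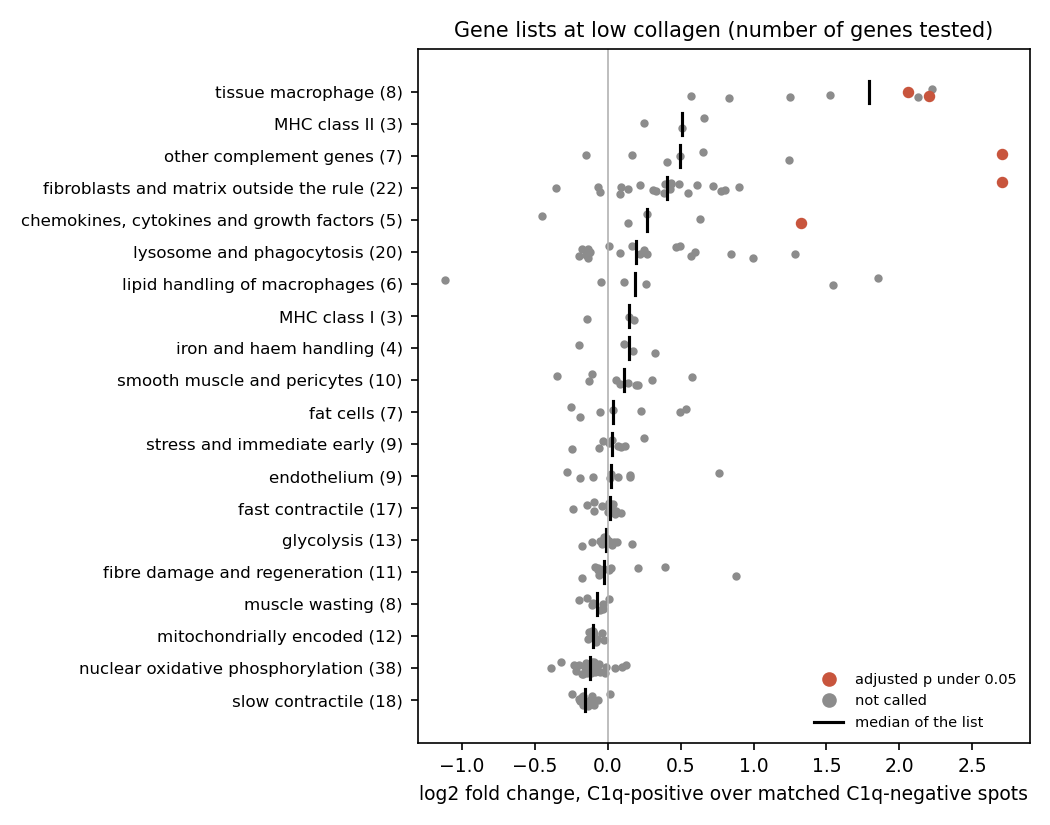
Log2 fold change of C1q-positive over matched C1q-negative spots (horizontal axis) for each tested gene of the lists with 3 or more tested genes. Points are genes, red where the edgeR adjusted p was under 0.05, and black bars are list medians. The tissue macrophage list had a median of 1.79, MHC class II one of 0.51 and slow contractile genes one of -0.16.

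Connective-tissue genes moved with the members despite the collagen limit. The 4 genes of the rule stood at 460 and 433 CPM in the members and at 343 and 357 in the matched spots. Of 22 tested fibroblast and matrix genes outside the rule, 19 lay above 0 with a median of 0.41, and 7 had an unadjusted p under 0.05, but only C4BPA, which also stands in this list, was called. The summed list reached 2563 and 2288 CPM against 1465 and 1579. C4BPA alone gave 443 and 395 CPM of these sums in the members and 56.7 and 64.3 in the matched spots. GSN, an actin-severing protein, gave 319 against 219 and 468 against 338 UMIs (log2 fold change 0.44, edgeR adjusted p = 0.11). LUM, a collagen-binding proteoglycan, gave 36 against 22 and 66 against 37 UMIs (0.72, edgeR adjusted p = 0.28), and BGN, a related one, gave 23 against 12 and 36 against 18 (0.90, edgeR adjusted p = 0.40).

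The contrast was also taken in spots where no UMI of the 4 genes was found. In such spots, a setting chosen after seeing the data, edgeR called 4 of 1479 genes: C4BPA at 2.57, FOLR1 at 2.86, ENSSSCG00000031640 at 2.23 and CST3 at 1.54 (log2 fold changes). CSF1R and CCL14 were not called there, with log2 fold changes of 2.60 (edgeR adjusted p = 0.10) and 1.28 (edgeR adjusted p = 0.38), beside 2.06 and 1.33 over all members.

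Markers of other blood cells gave few UMIs, though CD79A and MS4A2 gave more in the members than in the matched sums of both sections. CD3D and CD3G, of the T cell receptor complex, gave 0 UMIs in the members of both sections, as did CD3E, and the 15 T and NK cell genes together gave 4 and 10 UMIs against 5.60 and 16.2 in the matched sums. MS4A1, of B cells, gave none, while CD79A gave 12 and 19 UMIs against 10.2 and 12.2. LYZ gave 0 UMIs in all low-collagen spots used, and S100A8, of granulocytes and monocytes, gave 0 in the members. MS4A2, a chain of the mast cell IgE receptor, gave 6 and 7 UMIs against 1.48 and 1.98. The list of granulocyte, monocyte and mast cell genes together gave 6 and 12 UMIs against 2.80 and 4.04. These genes were too rare to test.

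Endothelial, smooth muscle and fat cell genes stayed near the bulk of genes. Their medians were 0.03 over 9 endothelial genes, 0.11 over 10 smooth muscle and pericyte genes and 0.04 over 7 fat cell genes, and edgeR called none. Among the lists given by counts only, edgeR also called none of the 3 MHC class I, 2 interferon-induced, 4 iron and haem, 9 stress, 11 fibre damage and 8 muscle wasting genes tested, with medians of 0.15, 0.35, 0.14, 0.03, -0.02 and -0.08. No gene of the satellite cell or Schwann cell lists was frequent enough to test.

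Over all members, blood RNA was higher in section 1 and level in section 2. HBB, the beta chain of haemoglobin, gave 1621 UMIs in the members of section 1 against 813 in the matched sum, but 1397 against 1395 in section 2 (log2 fold change 0.41, SE 0.15, edgeR adjusted p = 0.58). The share of spots with an HBB UMI did not follow, at 44.7% against 45.3% and 49.4% against 50.3%. In section 2, members with 3 or more C1q UMIs stood at 5829 CPM of HBB against 1892 in matched spots. HBB was called higher with 2 or more C1q UMIs (0.66), with the 4 low-collagen sums alone (0.42) and without the filter on low counts (0.37). The part of blood in the other results was not tested.

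RNA of the fibres themselves was slightly shifted in the fit over all members. Of 18 slow contractile genes 1 lay above 0, with a median of -0.16; of 38 nuclear oxidative phosphorylation genes 3 lay above 0, with a median of -0.12; and of 12 mitochondrially encoded genes 0 lay above 0, with a median of -0.10. None of these was called by edgeR at an adjusted p under 0.05. Of the 38 oxidative phosphorylation genes 4 had an unadjusted p under 0.05, all lower, and the slow and mitochondrial lists had none. Fast contractile and glycolytic genes had medians of 0.02 and -0.01. With 2 or more C1q UMIs as the minimum, edgeR called MYL3 (log2 fold change -0.47) and NDUFA13 (-0.94) lower. MYL3 was also called lower with a collagen limit of 4000 CPM (-0.32).

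MYL3, the slow ventricular myosin light chain, gave 862 against 960 UMIs in section 1 and 1090 against 1256 in section 2 (log2 fold change -0.25, edgeR adjusted p = 0.98). MYOZ2, a calsarcin of slow fibres, gave 314 against 389 and 575 against 577 (-0.20), and ACTN2, the alpha-actinin of all fibres, 866 against 967 and 1347 against 1389 (-0.16). FHL1, a LIM-domain protein, gave 3377 against 3563 and 4895 against 5304 UMIs (-0.16). Of the respiratory chain, NDUFB8 of complex I gave 89 against 124 and 163 against 192 (-0.39, edgeR adjusted p = 0.39), ATP5F1A of ATP synthase 422 against 509 and 697 against 739 (-0.23), NDUFA13 106 against 125 and 130 against 156 (-0.32), and NDUFA4 596 against 684 and 912 against 957 (-0.20). With the 4 low-collagen sums alone in the fit, which left 1 residual degree of freedom, edgeR called 51 genes, and the 23 lower ones included MYL3 (-0.23) and ATP5F1A (-0.21).

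Fibre type was read from MYH7, MYH2 and MYH4, none of which was called by edgeR in the fit over all members. MYH1, of type IIX fibres, was not used for this, and the paper left it unquantified because of faulty annotation. MYH7, of slow type I fibres, stood at 16541 and 14686 CPM in the members and at 17374 and 15221 in the matched spots. MYH2, of fast type IIA fibres, stood at 3175 and 3724 against 2981 and 3653, and MYH4, of fast type IIB fibres, at 426 and 377 against 403 and 488. MYH4 was thus higher in the members of section 1 and lower in those of section 2.

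Spots were classed by the MYH7 share of their MYH7, MYH2 and MYH4 UMIs, MYH7-dominant at 0.75 or more and MYH2/MYH4-dominant at 0.5 or less. MYH7-dominant spots made up 48.4% of the members of section 1 (exact 95% binomial interval 41.1 to 55.8%) and 55.3% of the matched weight, and 43.3% (37.2 to 49.5%) against 48.3% in section 2. MYH2/MYH4-dominant spots made up 33.2% (26.5 to 40.3%) against 27.7% and 42.9% (36.8 to 49.2%) against 36.1%. The intervals count spots of 1 section and cover counting error only, and the matched shares have no interval. Whether a matched share lies inside an interval is therefore not read as a result. An exact permutation test over 2 sections cannot reach 0.05, and none was run.

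Among the spots given a myosin class, C1q stood lowest where MYH7 dominated. Over all low-collagen spots of section 1 it reached 77.1 CPM where MYH7 dominated, 94.1 in spots of mixed class and 140 where MYH2 and MYH4 did, and in section 2 the levels were 61.6, 82.0 and 134. Spots with too few myosin UMIs for a class stood at 182 and 45.9 CPM, on 22 and 5 C1q UMIs. The share of C1q-positive spots ran the other way, from 13.1% and 14.2% over 10.9% and 12.3% to 8.17% and 9.71%. Median depths differed widely, at 2969 and 3630.5 UMIs in MYH7-dominant and 733 and 998 in MYH2/MYH4-dominant spots, so no order was read from the shares. Levels in CPM are relative to fibre RNA, and more C1q RNA cannot be told apart from less fibre RNA in a spot.

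The companions of C1q were seen in both fibre classes. In MYH7-dominant spots C4BPA stood at 221 and 248 CPM in the members against 48.5 and 51.7 in C1q-negative spots of the same depth and class. In MYH2/MYH4-dominant spots it stood at 1012 and 637 against 81.8 and 85.0. The 10 macrophage markers stood at 186 and 190 against 70.6 and 72.1 in the former and at 485 and 403 against 109 and 77.6 in the latter. Whether the contrast differs between the classes was not tested.

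Does the same contrast hold where collagen is abundant? There were 38 and 43 C1q-positive spots at or over the limit, and the interaction between C1q and collagen class was tested in the same fit. It passed for 0 of 2844 genes (0%) in edgeR and also in DESeq2, with 160 genes at an unadjusted p under 0.05 in edgeR. The absence of calls does not show that the contrasts are equal, since the collagen-rich C1q-positive sums held only 76621 and 91682 UMIs.

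**Figure D5:**
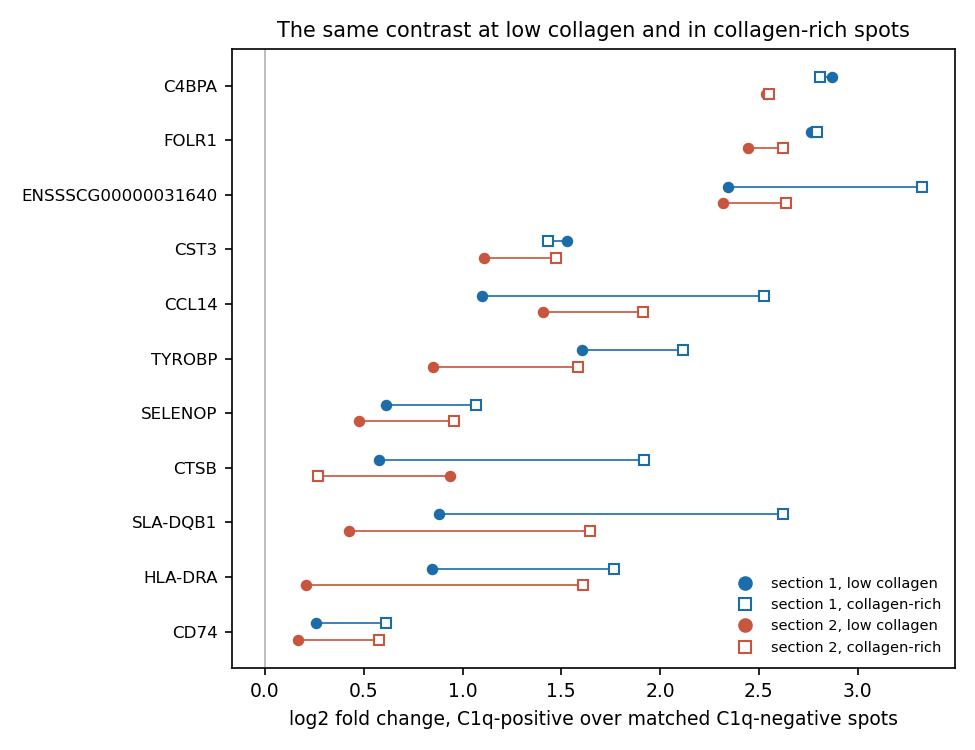
Log2 fold change of C1q-positive over matched C1q-negative spots (horizontal axis) fitted in each section at low collagen (filled circles) and in collagen-rich spots (open squares). Genes are the called and selected antigen-presentation and macrophage genes with at least 3 UMIs in each C1q-negative sum. C4BPA lay at 2.87 and 2.53 at low collagen and at 2.81 and 2.55 in collagen-rich spots.

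C4BPA, FOLR1 and CST3 had like fold changes on both sides. C4BPA gave 122 against 16 UMIs in collagen-rich spots of section 1 and 107 against 15 in section 2, and the interaction was 0.03 on the log2 scale (SE 0.36). FOLR1 gave 38 against 5 and 45 against 6 UMIs (interaction 0.15, SE 0.47), and CST3 gave 129 against 44 and 219 against 65 (0.18, SE 0.29). The other called genes were further apart, on fewer molecules, with fitted interactions of 0.91 for CCL14 (SE 0.52), 0.73 for CSF1R (SE 0.81), 0.74 for CD163 (SE 1.43), -0.67 for SRGN (SE 0.97), 0.66 for ENSSSCG00000031640 (SE 0.48), 0.56 for ENSSSCG00000036618 (SE 0.87) and -1.56 for ENSSSCG00000035736 (SE 1.19). In the collagen-rich matched sums these 7 genes had 5 UMIs or fewer, so their fitted values are loosely known.

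The tested MHC class II genes all had interactions above 0. SLA-DQB1 gave 27 against 4 and 38 against 10 UMIs in collagen-rich spots, an interaction of 1.41 (unadjusted p = 0.00561, edgeR adjusted p = 0.85). HLA-DRA gave 26 against 7 and 26 against 7 UMIs, an interaction of 1.23 (unadjusted p = 0.0093, edgeR adjusted p = 0.85). CD74 gave 156 against 94 and 203 against 112 UMIs (0.40, edgeR adjusted p = 0.85). None of the 3 passed the adjusted threshold. With a collagen limit of 1000 CPM edgeR called 2 interactions, of MYL3 (-0.645) and LGALS1 (0.645). With no collagen UMI in the low-collagen spots it called 1, of ENSSSCG00000001229 (0.988).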

How the data were processed

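Whole-number UMI counts per feature and spot were deposited for 2 sections. Per the submitters' processing notes the authors ran Space Ranger 1.1 on Sscrofa11.1, and per the methods the Y chromosome was left out and MYH2 and MYH4 were counted on older gene models. The labels also name pig carrier RNA in the libraries, whose part in the counts was not tested. Of 31780 features 15086 had no symbol, and 796 of these were named from the reference. The positions of spots were not used here.

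Spots with over 25% mitochondrial UMIs (8 and 2) and then the lowest 2% by UMIs (49 and 59) were removed. Counts were summed per section into 4 classes (C1q-positive or C1q-negative, each at low collagen or collagen-rich), and C1q-negative sums were weighted by depth bin to the C1q-positive spots and rounded. The 8 sums were fitted with edgeR 4.0.16 in R 4.3.3 (quasi-likelihood test, TMM, filterByExpr with a minimum count of 10, section as a block, Benjamini-Hochberg adjusted p under 0.05), with 3 residual and 13.9 prior degrees of freedom. The block removes the general difference between the 2 pigs. These p-values therefore measure how far differences between the 4 classes varied between the 2 sections. That spread was pooled over low-collagen and collagen-rich sums and drawn towards that of other genes. Spots were not treated as replicates. DESeq2 1.42.0 was an alternative, with other collagen limits, depth bins, C1q minimums and filters. The fit was also run on simulated data, where both sections shared each gene's mean and only frequent genes were changed. That run does not cover rare genes.

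A myosin class was given only to spots whose MYH7, MYH2 and MYH4 UMIs summed to 5 or more. Binomial intervals are exact, at 95%, and cover counting error only. Named genes were up to 12 called genes per direction with a symbol and at least 10 CPM, up to 4 genes per list with the smallest p, all macrophage list genes as counts, and the rule and myosin genes as levels. Of the 27 lists, 13 are given by counts and medians only. The members and lists were chosen with earlier results of these data known. Positions are from the RefSeq annotation of Sscrofa11.1. Computations outside R used Python 3.11.15.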

Additional observations from a re-analysis of the deposited data

How the results depend on the processing

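C4BPA, FOLR1 and ENSSSCG00000031640 were called under all 17 alternatives, with log2 fold changes of 1.57 to 3.77, 1.70 to 3.54 and 1.47 to 3.43, and CST3 under 16 of 17 (0.67 to 2.18). The count of genes called at low collagen, 10, became 51 with only the 4 low-collagen sums, 45 with a collagen limit of 4000, 34 with 2 or more C1q UMIs, 24 without depth matching, 6 with 1 drawn C1q-negative spot per member, 6 when matched also on myosin class and 4 with DESeq2. It was 4 in spots with no collagen UMI and 4 with exactly 1 C1q UMI, both chosen after seeing the data. The cause of these shifts was not tested. The interaction count of 0 became 2 with a collagen limit of 1000 and 1 with no collagen UMI. The MYH7-dominant share of members minus matched spots, -6.84 and -4.98 percentage points in sections 1 and 2, became 17.5 and 14.0 without depth matching, where members are deeper, and -14.5 in section 2 with 2 or more C1q UMIs. The MYH2/MYH4-dominant difference, 5.49 and 6.78, became -2.64 and -1.73 without depth matching, and 0 in section 2 when matched on myosin class, by construction. The difference in the share of spots with a macrophage marker, 17.7 and 17.4 percentage points, became 36.7 and 34.0 with 2 or more C1q UMIs and 6.82 and 10.3 with exactly 1. Directions of genes that were not called changed for MYOZ2 (0.0057 without depth matching), SERPING1 (-0.34 with no collagen UMI, -0.11 with exactly 1 C1q UMI) and CXCL12 (-0.11 without depth matching, -0.0005 with exactly 1 C1q UMI). With a single section left no call can be made, since no residual degree of freedom remains, and the log2 fold change was 2.53 to 2.87 for C4BPA, 2.45 to 2.76 for FOLR1 and 1.11 to 1.53 for CST3. Over 744 tested fold changes of named genes under alternatives that kept both sections, 643 kept direction and side of the threshold. A call was gained by 69 and lost by 27, and 5 changed sign. Of 94 values from a single section, 57 moved by no more than the SD of the 2 section values and 37 by more. That SD comes from the same 2 values, so these counts are no measure of robustness. The section was a block in the main fit, and without this block 8 genes were called.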
